A study of Mus musculus with 24 samples.

Results

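Transcripts of 7 genes that carry estrogen signals to the genome were followed in the carotid arteries of ovariectomized mice: the estrogen receptors Esr1, Esr2 and Gper1, the p160 coactivators Ncoa1, Ncoa2 and Ncoa3, and the corepressor Ncor1. They were found by matching the Ensembl identifiers of the count tables to these symbols in GENCODE mouse release M21, and are 7 of the 55421 genes listed for each library. RNA sequencing covered 24 carotid artery libraries of C57BL/6 mice, labelled as aged 9 weeks, with 6 libraries in each of 4 groups: OVX (placebo), E2 (estradiol), E4 (estetrol, a natural estrogen with additional hydroxyl groups) and TAM (tamoxifen, a selective estrogen receptor modulator). All groups shared ovariectomy, which removes the main source of circulating estrogen, and no labelled group had intact ovaries. The series text gives 3 weeks of treatment, whereas the methods of the study describe a shorter one with subcutaneous pellets. The pellet contents of E2 and E4 differed, and the tamoxifen dose is not given in the sources used here. Titles of 6 libraries read E4 although their treatment field says placebo, and grouping followed the title. Nothing in the labels states whether each library came from 1 animal or from pooled arteries, so that p-values measure the spread between these libraries.

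Estrogen receptor alpha, encoded by Esr1, and estrogen receptor beta, encoded by Esr2, are nuclear receptors that bind estrogen response elements or tethering factors on DNA, whereas Gper1 is a membrane receptor coupled to G proteins. Once an agonist is bound, the receptor recruits p160 coactivators, which bring in histone acetyltransferases such as p300. With tamoxifen bound, its surface favours corepressors such as Ncor1, which recruit histone deacetylases. In the arterial wall, estrogen receptor alpha is known for its actions in endothelial and smooth muscle cells.

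Total counts per library ranged from 24647246 to 64221401, with a median of 45156106. Levels are given as CPM (counts-per-million after TMM scaling of the totals in edgeR), and levels of different genes are compared only as FPKM, CPM per kilobase of summed exon length. A gene was called where the adjusted p-value of edgeR's quasi-likelihood test was under 0.05, adjusted by the Benjamini-Hochberg method over the 25033 genes tested. All 8 smooth muscle markers and all 8 endothelial markers passed the filter on low counts, and the smooth muscle markers summed to between 2360 and 8470 CPM. Markers of neighbouring tissue were also present: 8 sympathetic ganglion markers (such as Th and Dbh) summed to 37.6 CPM in OVX C5 and 213 CPM in TAM C35, and to between 2260 and 8440 CPM in the other 22 libraries. Compared with OVX, 7 of 8 macrophage markers were called higher with E2, and 0 of 7 T cell and 0 of 7 skeletal muscle markers were called with any treatment, by edgeR or by DESeq2 (T cell: 2 with E4, 3 with E2 and 0 with TAM at an unadjusted p under 0.05; skeletal muscle: 0, 1 and 1). Compared with E2, however, all 7 T cell markers were called lower with E4 (median log2 fold change -3.25; 4 by DESeq2), and E2 C9 stood apart at 346 CPM of these markers. Thyroid and parathyroid markers reached 2990 CPM in E4 C38 alone, mainly from Pth (2910 CPM), which did not pass the filter on low counts and was not tested. The numbers in the titles fell into a first series (C2 to C20) and a second (C24 to C39), and the labels do not state what these mark. In these whole arteries, fewer cells of a type and less RNA per cell cannot be told apart.

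The sequences upstream of 3 members are shown because of how these genes stood among the members: Esr1 fell with E4, Ncoa1 rose with E4, and Esr2 was barely detected. Each is the stretch of 250 bases before a transcript start, from RefSeq (GRCm38.p6), written 5′ to 3′ on the gene's strand. Of 2 windows matched for Esr1 the second is printed, since all 250 bases of the first lie in annotated exons. Capitals mark the estrogen response element half-site GGTCA in either orientation.
Esr1, chr10:4709908-4710157, plus strand: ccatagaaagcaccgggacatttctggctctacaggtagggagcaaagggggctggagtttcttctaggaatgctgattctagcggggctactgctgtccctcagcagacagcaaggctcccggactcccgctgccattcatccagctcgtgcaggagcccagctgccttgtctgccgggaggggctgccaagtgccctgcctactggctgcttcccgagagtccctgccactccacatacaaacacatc
Esr2, chr12:76177260-76177509, minus strand: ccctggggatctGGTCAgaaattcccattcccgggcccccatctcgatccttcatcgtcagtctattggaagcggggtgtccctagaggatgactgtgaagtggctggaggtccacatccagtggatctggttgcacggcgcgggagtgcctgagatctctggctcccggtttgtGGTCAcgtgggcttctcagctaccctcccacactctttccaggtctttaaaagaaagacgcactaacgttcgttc
Ncoa1, chr12:4477183-4477432, minus strand: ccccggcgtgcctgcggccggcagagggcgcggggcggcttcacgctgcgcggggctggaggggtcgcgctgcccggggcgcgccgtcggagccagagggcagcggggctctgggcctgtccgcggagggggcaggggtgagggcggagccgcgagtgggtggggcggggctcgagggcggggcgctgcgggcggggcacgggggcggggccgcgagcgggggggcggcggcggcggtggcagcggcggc
Windows were matched for 5 of the 7 members. The Esr2 window held 2 half-sites, beginning 238 and 75 bases before the start, and the windows of Esr1, Gper1, Ncoa1 and Ncor1 held none. Among all 32851 windows of the same length, 35.2% held a half-site on either strand, and 0.1% held the full palindrome, GGTCA and its reverse complement TGACC with 3 bases between them, which no member's window held. The Ncoa1 window was 85.6% G and C, against a median of 52.4% over all windows, and held 7 GC boxes (GGGCGG on either strand), a motif present in 32.7% of all windows. These matches describe letters and not binding.

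Per length, the corepressor and 1 coactivator were the most abundant members. Ncor1 averaged 10.03 ± 0.856 FPKM and Ncoa3 9.80 ± 0.830 (SD, n = 24), and Ncor1 was the higher of the pair in 14 of 24 libraries, so that their order did not exceed the spread between libraries. Ncoa1 followed at 4.94 ± 0.514 and Ncoa2 at 4.11 ± 0.591, with Ncoa1 higher in 21 of 24 libraries. Esr1 averaged 2.56 ± 0.713 FPKM and was below Ncoa2 in 22 of 24 libraries. Gper1, at 1.03 ± 0.417 FPKM, was below Esr1 in all 24. Esr2 averaged 0.0216 ± 0.0197 FPKM, the lowest of the 7 in all 24 libraries.

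**Figure D1:**
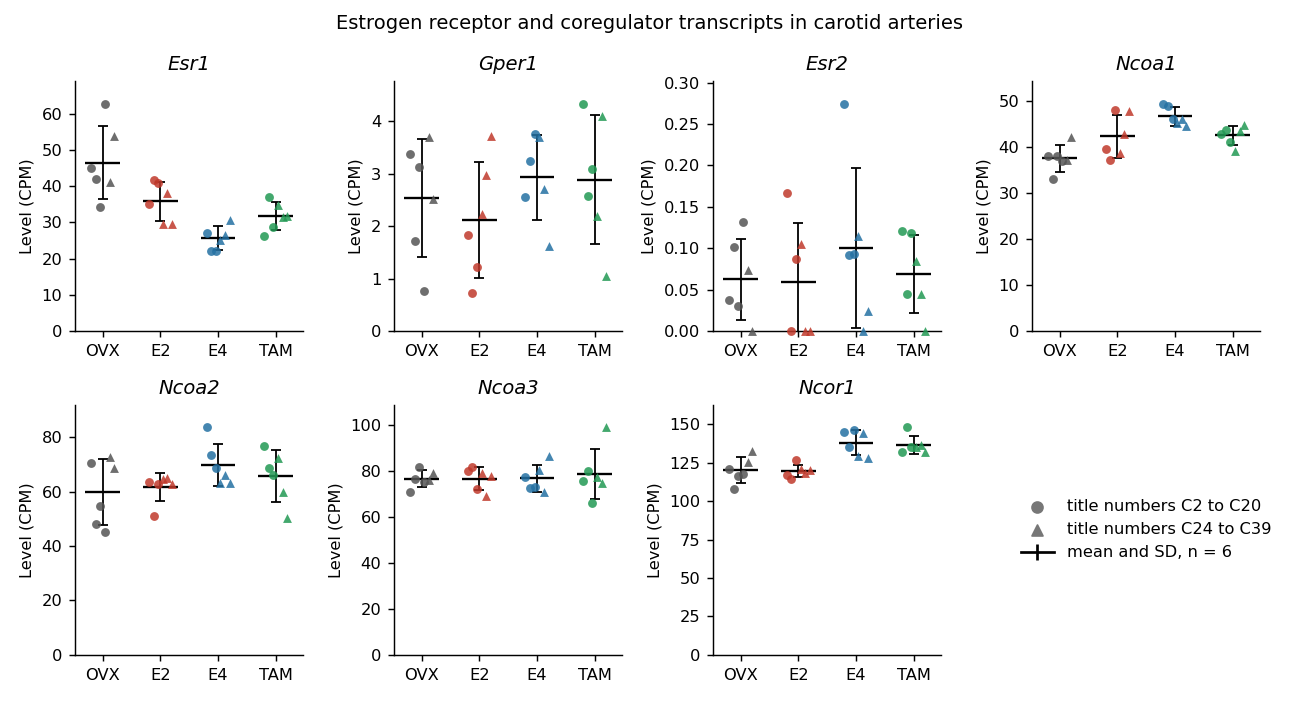
Level of each gene in CPM (vertical axes, each from 0) in every library of the 4 groups, with circles for title numbers C2 to C20, triangles for C24 to C39, and bars for the mean and SD of 6 libraries. The 6 Esr1 values with E4 sit between 22.05 and 30.7 CPM, below all 6 OVX values (E4 and OVX do not overlap for 9.37% of all genes). Ncoa3 has nearly the same mean in each group.

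Esr1, on chromosome 10 (4611593 to 5005614, plus strand, GRCm38; ENSMUSG00000019768), had the highest ratio between group means of the 6 members tested, 1.82-fold. Its values had a lowest, median and highest of 34.3, 43.6 and 62.7 CPM in OVX libraries. With E2 these were 29.5, 36.7 and 41.8 CPM, with TAM 26.3, 31.7 and 37.0 CPM, and with E4 22.05, 25.9 and 30.7 CPM. Every treated group had a lower median than OVX, and only the E4 values lay wholly below the OVX values. E4 and OVX did not overlap for 9.37% of all genes. Counts behind these values ranged from 654 to 2857 per library. The 4 groups differed for Esr1 (joint test of the groups, adjusted p = 0.000497), as they did for 21.0% of genes tested.

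With E4, Esr1 fell by 44.9% relative to OVX, a log2 fold change of -0.86 (standard error 0.13, 95% interval -1.13 to -0.59, adjusted p = 0.000282). With TAM it fell by 31.8% (-0.55, standard error 0.13, interval -0.82 to -0.29, adjusted p = 0.0286). With E2 the difference was -0.37 (standard error 0.13, interval -0.64 to -0.11) and did not pass adjustment (adjusted p = 0.107). Esr1 was lower with E4 than with E2, a difference of -28.6% (log2 fold change -0.49, interval -0.75 to -0.22, adjusted p = 0.0174). TAM and E2 libraries differed by -0.18 (interval -0.44 to 0.09, adjusted p = 0.459), and TAM and E4 libraries by 0.31 (interval 0.04 to 0.57, adjusted p = 0.462). Over all genes tested, 12.5% were called lower with E4 and 0.919% lower with TAM, each against OVX, and 8.97% lower with E4 than with E2. These shares moved with the scaling and with both ganglion-poor libraries: between E4 and OVX, 9.52% were called higher and 12.5% lower, against 7.19% and 16.5% with upper-quartile scaling, and 11.9% and 10.3% without OVX C5 and TAM C35. Between TAM and OVX they went from 1.29% higher and 0.919% lower to 0.819% and 1.12% with upper-quartile scaling, and between E4 and E2 from 3.55% and 8.97% to 13.3% and 12.4% without OVX C5 and TAM C35. The median log2 fold change of all genes was within 0.01 of 0 in each comparison. Comparisons with OVX share the same 6 OVX libraries.

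The difference in Esr1 between E4 and OVX had the same sign in both number series. The log2 fold change was -0.96 among first-series libraries (4 OVX and 3 E4 libraries, adjusted p = 0.017) and -0.78 among second-series libraries (2 OVX and 3 E4, adjusted p = 0.148), with no call in the latter. Mean levels were 46.05 and 47.4 CPM in OVX and 23.8 and 27.5 CPM with E4, in the first and the second series. The difference between E4 and E2 was -0.73 in the first series (adjusted p = 0.0377) and -0.22 in the second (adjusted p = 0.83), with 3 libraries of each group in each. A direct test of that change between series gave 0.49 (adjusted p = 0.497). For TAM the differences from OVX were -0.60 and -0.53, and neither passed adjustment (adjusted p = 0.118 and 0.776).

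Markers of other cell types differed between some of the same groups as Esr1. Compared with E2, 7 of 8 macrophage, 7 of 7 T cell and 5 of 8 fibroblast markers were called lower with E4. Of 8 fibroblast markers (Pdgfra, Dcn, Lum and others), 6 were called lower with E4 than in OVX, and their summed level was 3710 to 6170 CPM with E4 and 5930 to 9300 CPM in OVX. With TAM, 2 were called higher and 0 lower, with a summed level of 6220 to 10300 CPM. The list median between TAM and OVX was -0.1 on the log2 scale, and 4 of 8 had an unadjusted p under 0.05. With their mean log2 CPM as a covariate, the Esr1 difference between E4 and OVX was -0.61 and still called (adjusted p = 0.0169), that between TAM and OVX -0.57 (adjusted p = 0.0093), and that between E4 and E2 -0.25 and no longer called (adjusted p = 0.373). All 7 B cell markers (Cd79a and others) were called lower with E4, and 2 of the 7 with TAM, each against OVX. Their sum, though, was at most 7.73 CPM with E4 and 37.9 CPM in OVX. With these as a covariate, no Esr1 difference was called (E4 against OVX -0.75, adjusted p = 0.0603; TAM against OVX -0.48, adjusted p = 0.316). Adipocyte markers summed to 3470 to 7880 CPM in OVX, 4360 to 7200 CPM with E2, 3620 to 5340 CPM with E4 and 3170 to 4480 CPM with TAM. With them as a covariate, E4 against OVX was -0.66 (adjusted p = 0.000729), E2 against OVX -0.47 (adjusted p = 0.00583), TAM against OVX -0.29 (adjusted p = 0.244) and E4 against E2 -0.20 (adjusted p = 0.451). With smooth muscle markers as a covariate, the differences of E4 and TAM from OVX were -0.87 and -0.60, both called (adjusted p = 0.000101 and 0.0132). The fibroblast and smooth muscle covariates were added after the data had been seen. With group means removed, Esr1 and the mean log2 CPM of the adipocyte markers were correlated over the 24 libraries (Pearson's r = 0.66, permutation p = 0.00041, adjusted p = 0.0045 over 66 relations of 6 members with 11 marker lists, of which 17 had an adjusted p for r under 0.05; Spearman's rho = 0.60, permutation p = 0.0021, adjusted p = 0.026), with r = 0.52 without E2 C9 and OVX C5, and 0.84 and 0.36 within the first series (13 libraries) and the second (11 libraries). Esr1 and the ganglion markers were correlated in the opposite direction (r = -0.53, rho = -0.46, permutation p = 0.0059 and 0.026, adjusted p = 0.026 and 0.095). That r was -0.49 without TAM C35 and OVX C5, and -0.73 and -0.11 within series. The ganglion markers averaged 7250 CPM with E4 and 4030 CPM in OVX, with 0 of 8 called by edgeR or DESeq2. The part of any of these cell types in the Esr1 result was not tested beyond these values.

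**Figure D2:**
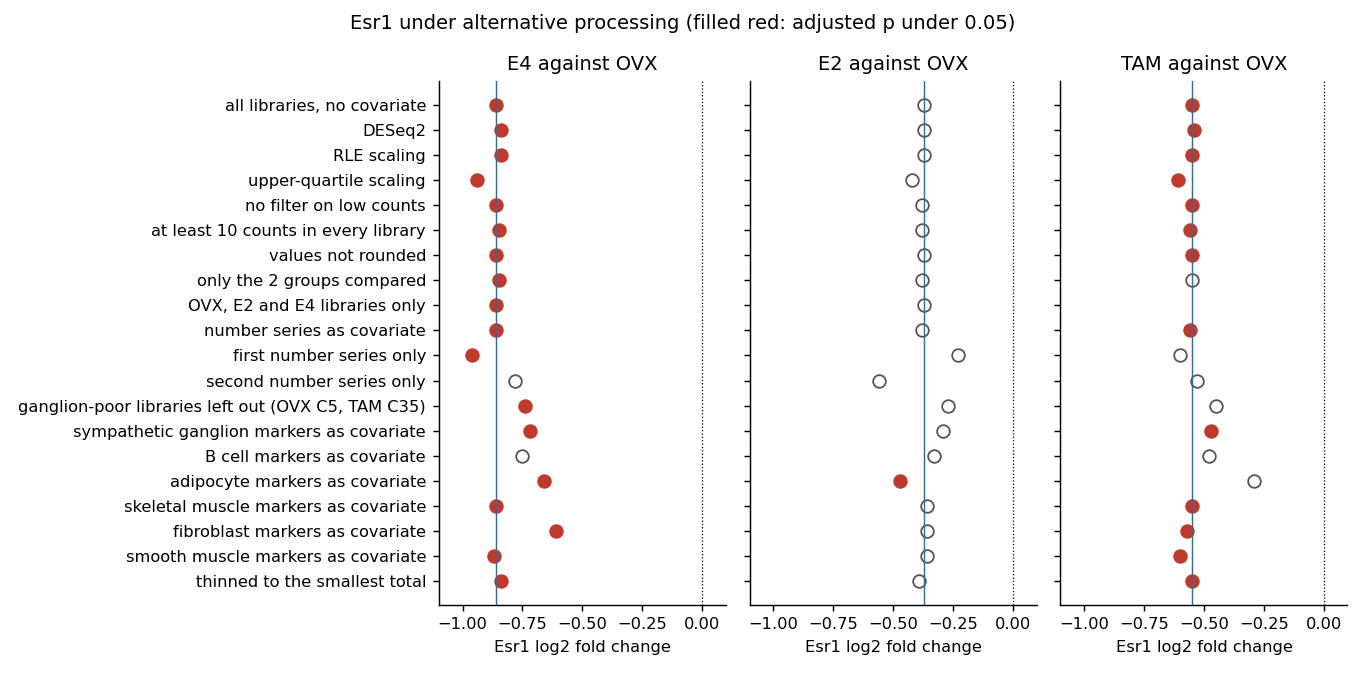
Log2 fold change of Esr1 (horizontal axes) for E4, E2 and TAM against OVX under each alternative of scaling, filter, libraries and marker covariate (rows). Filled red points have an adjusted p under 0.05, open points do not, and the blue line marks the value from all libraries without a covariate: E4 lies between -0.96 and -0.61 throughout.

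OVX C5 had the highest Esr1 level of all libraries, 62.7 CPM, and very few ganglion markers. Without OVX C5 and TAM C35, the differences of E4 and TAM from OVX were -0.74 (adjusted p = 0.000361) and -0.45 (adjusted p = 0.0688, not called). Leaving out any single library kept the E4 call, with differences between -0.93 and -0.74, whereas the TAM call was lost without OVX C3, OVX C5, TAM C11, TAM C13 or TAM C33 (-0.58, -0.45, -0.50, -0.53 and -0.55). The call between E4 and E2 was lost without E2 C8 (-0.44, adjusted p = 0.0541), and E2 against OVX was called without OVX C4 (-0.45, adjusted p = 0.0436). In a fit of the OVX and TAM libraries alone, the TAM difference was -0.55 and was not called (adjusted p = 0.109).

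Esr2, on chromosome 12 (76120419 to 76177259, minus strand; ENSMUSG00000021055), was close to the limit of detection. Its counts summed to 80 over 24 libraries, from 0 to 10 in each, with 18 in OVX, 17 with E2, 24 with E4 and 21 with TAM. It had 0 counts in 6 libraries and under 3 counts, the detection limit taken here (0.0467 to 0.122 CPM according to depth), in 11 of 24. The groups overlapped, and Esr2 was removed by the filter on low counts, so that no test was made. Over all libraries, 483 counts of Esr1 were obtained per count of Esr2, a 118-fold difference per length. Without molecular identifiers, several reads can stem from 1 molecule, so these limits cover counting error only.

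Gper1, on chromosome 5 (139423151 to 139427800, plus strand; ENSMUSG00000053647), varied more among libraries of a group than between groups. Its lowest, median and highest values were 0.769, 2.83 and 3.71 CPM in OVX, 0.732, 2.03 and 3.72 CPM with E2, 1.63, 2.98 and 3.75 CPM with E4, and 1.04, 2.84 and 4.33 CPM with TAM. The ranges of all 4 groups overlapped. Compared with OVX, log2 fold changes were 0.20 with E4 (95% interval -0.56 to 0.97), -0.27 with E2 (-1.04 to 0.51) and 0.18 with TAM (-0.58 to 0.95), and each interval includes a change as large in size as that of Esr1 with E4. None of its 6 comparisons was called (lowest adjusted p = 0.403, joint test adjusted p = 0.704).

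In each of the 4 groups the library lowest in Gper1 was also the lowest in ganglion markers. These were OVX C5, TAM C35, E2 C8 and E4 C39, with 37.6, 213, 2260 and 4850 CPM of ganglion markers. With group means removed, Gper1 and the mean log2 CPM of the ganglion markers were correlated over the 24 libraries (Pearson's r = 0.79, permutation p = 1e-05, the smallest that 100000 resamples can give; adjusted p = 0.00066 over the same 66 relations; Spearman's rho = 0.69, permutation p = 0.0004, adjusted p = 0.015). Without OVX C5 and TAM C35, r was 0.72, and within the first and second series it was 0.82 and 0.79. Gper1 was also correlated with fibroblast markers in the opposite direction (r = -0.67, rho = -0.52, permutation p = 0.00031 and 0.01, adjusted p = 0.0041 and 0.055; r = -0.72 without E4 C38 and E4 C19, and -0.69 and -0.74 within series). Adipocyte (r = -0.65), macrophage (-0.56) and thyroid and parathyroid markers (0.55) were related to Gper1 as well (adjusted permutation p = 0.0056, 0.026 and 0.026 for r; 0.026, 0.13 and 0.031 for rho). Levels of 1 library are shares of its total.

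Among the p160 coactivators, Ncoa1 rose with E4. Ncoa1, also called SRC-1, lies on chromosome 12 (4247362 to 4477182, minus strand; ENSMUSG00000020647). Its lowest, median and highest values were 33.1, 37.7 and 42.3 CPM in OVX and 44.7, 46.1 and 49.5 CPM with E4, and the groups did not overlap, as was the case for 9.37% of all genes. The level with E4 was 24.3% higher, a log2 fold change of 0.31 (standard error 0.07, interval 0.17 to 0.45, adjusted p = 0.00314). With E2 it reached 37.2, 41.3 and 48.2 CPM (0.17 against OVX, interval 0.04 to 0.31, adjusted p = 0.17), and with TAM 39.2, 43.3 and 44.9 CPM (0.18, interval 0.04 to 0.32, adjusted p = 0.13). Neither was called, and E4 and E2 differed by 0.14 (interval 0.00 to 0.28, adjusted p = 0.162). The joint test was called (adjusted p = 0.0132; 0.0759 with upper-quartile scaling). The E4 difference was 0.20 and not called in the second series (adjusted p = 0.51), and its call was also lost with B cell markers (0.28, adjusted p = 0.194) or fibroblast markers (0.28, adjusted p = 0.0559) as a covariate. Schwann cell markers summed to 1130 to 2540 CPM in OVX and 1980 to 5020 CPM with E4, with 1 of 7 called higher. Their relation with Ncoa1 over 24 libraries, group means removed, had r = 0.61 (permutation p = 0.0012, adjusted p = 0.0085; rho = 0.53, permutation p = 0.0079, adjusted p = 0.052), 0.66 without E4 C39 and E2 C8, and 0.79 and 0.43 within series. Their part in the difference was not tested.

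Ncoa2 (TIF2; chromosome 1, 13139105 to 13374083, minus strand; ENSMUSG00000005886) was called in none of its comparisons. Its lowest, median and highest values were 45.3, 61.7 and 72.6 CPM in OVX, 51.0, 63.1 and 65.1 CPM with E2, 63.1, 67.4 and 83.5 CPM with E4, and 50.2, 67.5 and 76.9 CPM with TAM. Differences from OVX were 0.22 with E4 (interval -0.03 to 0.46), 0.04 with E2 (-0.20 to 0.28) and 0.13 with TAM (-0.11 to 0.38), and the lowest adjusted p of the 6 comparisons was 0.185. With smooth muscle markers as a covariate, E4 against OVX was called (0.25, adjusted p = 0.0457). The lowest libraries of the OVX, E2 and TAM groups were again OVX C5, E2 C8 and TAM C35. With group means removed, r with the ganglion markers was 0.70 (permutation p = 4e-05, adjusted p = 0.00088; rho = 0.59, permutation p = 0.0029), 0.53 without OVX C5 and TAM C35, and 0.61 and 0.85 within the first and second series. Ncoa2 was also related in the opposite direction to smooth muscle (r = -0.65), endothelial (-0.61), fibroblast (-0.54) and adipocyte markers (-0.52). The adjusted permutation p for r was 0.0049, 0.011, 0.028 and 0.037, and for rho 0.054, 0.065, 0.12 and 0.055. Between the series the difference of E4 from OVX changed by -0.60 and that of TAM by -0.59, neither of which passed adjustment (adjusted p = 0.85 and 0.459).

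Ncoa3 (SRC-3; chromosome 2, 165992636 to 166073242, plus strand; ENSMUSG00000027678) had nearly equal group means of 76.8 ± 3.71 CPM in OVX, 76.7 ± 4.93 with E2, 76.9 ± 5.91 with E4 and 78.9 ± 10.99 with TAM (SD, n = 6 each). The 95% intervals of its differences from OVX were -0.16 to 0.16 for E4, -0.16 to 0.16 for E2 and -0.12 to 0.20 for TAM, which leave out a change as large as that of Esr1 with E4. None of its comparisons was called (lowest adjusted p = 0.808, joint test adjusted p = 0.963). The highest value, 99.1 CPM, belonged to TAM C35, the library with the most smooth muscle markers (8470 CPM). With group means removed, r with the smooth muscle markers was 0.80 (permutation p = 3e-05, adjusted p = 0.00088; rho = 0.67, permutation p = 0.00045), 0.67 without OVX C2 and TAM C35, and 0.65 and 0.92 within series. Ncoa3 was also related to fibroblast (r = 0.66), macrophage (0.55) and endothelial markers (0.55). The adjusted permutation p for r was 0.0038, 0.026 and 0.026, and for rho 0.019, 0.019 and 0.34. Of its exon bases, 1.95% are shared with Sulf2 on the opposite strand, and whether the counting used the strand is not stated.

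**Figure D3:**
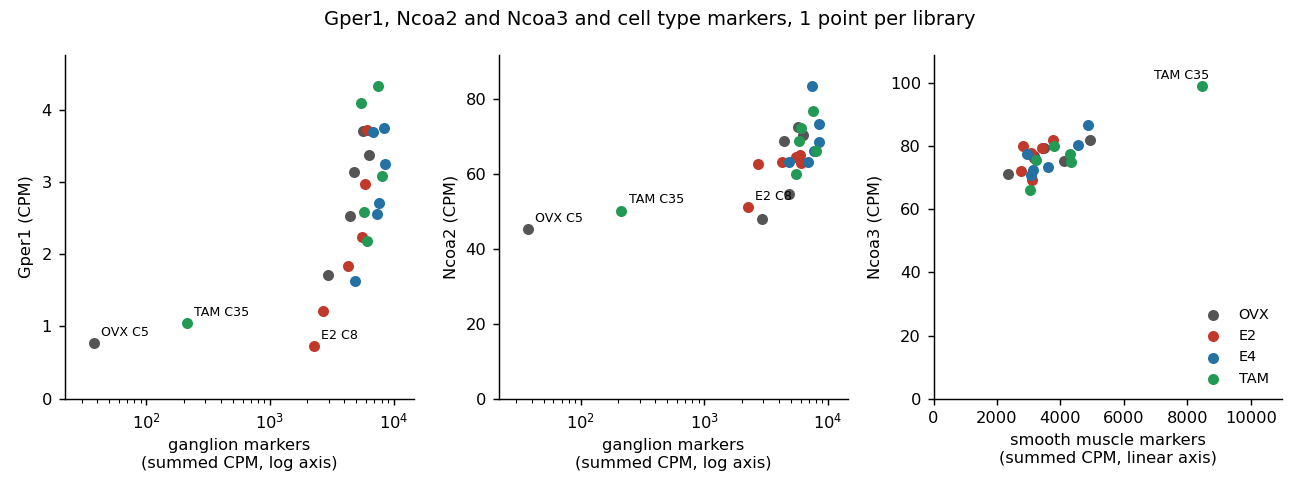
Levels of Gper1, Ncoa2 and Ncoa3 in CPM (vertical axes) against the summed CPM of 8 sympathetic ganglion markers (log axis) or 8 smooth muscle markers (linear axis), 1 point per library, coloured by group. OVX C5 and TAM C35 lie far left in the ganglion panels, at 37.6 and 213 CPM, and TAM C35 is the highest point in the Ncoa3 panel.

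The corepressor Ncor1 was higher with E4 than in both OVX and E2, by a small amount. Ncor1 lies on chromosome 11 (62316426 to 62458541, minus strand; ENSMUSG00000018501). Its lowest, median and highest values were 107.9, 119.2 and 132.5 CPM in OVX, 114.5, 119.1 and 126.5 CPM with E2, 128.2, 139.7 and 146 CPM with E4, and 131.6, 135.1 and 147.8 CPM with TAM. The E2 values lay wholly below those of both E4 and TAM, which was the case for 6.17% and 4.24% of all genes, whereas the OVX values overlapped both. Ncor1 was 15.0% higher with E4 than in OVX (log2 fold change 0.20, standard error 0.06, interval 0.08 to 0.32, adjusted p = 0.0153) and 15.4% higher than with E2 (0.21, interval 0.09 to 0.32, adjusted p = 0.0203). It was 14.0% higher with TAM than with E2 (0.19, interval 0.07 to 0.31, adjusted p = 0.0462), and TAM and OVX differed by 0.18, which was not called (interval 0.07 to 0.30, adjusted p = 0.074). This difference was called by DESeq2 (0.19, adjusted p = 0.01), with fibroblast or smooth muscle markers as a covariate (0.19 and 0.21, adjusted p = 0.0413 and 0.0283) and without OVX C25 (0.21, adjusted p = 0.0454). E2 and OVX differed by -0.01 (interval -0.12 to 0.11), and E4 and TAM were not called different (adjusted p = 0.93). With upper-quartile in place of TMM scaling, E4 against OVX was 0.13 and TAM against E2 0.18, and neither was called (adjusted p = 0.0987 and 0.0733). Both E4 calls were lost with fibroblast markers as a covariate (0.16 against OVX and 0.17 against E2, adjusted p = 0.185 and 0.194) and with B cell markers (0.17 and 0.19, adjusted p = 0.355 and 0.12), and E4 against OVX was also not called in a fit of those groups alone (0.21, adjusted p = 0.0585). Compared with E2, 7 of 8 macrophage markers were called lower with E4 and with TAM, and 5 of 8 fibroblast markers and 7 of 7 T cell markers with E4. The part of macrophages and T cells in the Ncor1 differences was not tested. The call between TAM and E2 was lost on leaving out any of 16 single libraries (OVX C2, C4 or C24, any E2 library, any TAM library other than C35, or E4 C19 or C20), with differences of 0.16 to 0.21, and that between E4 and E2 without E2 C8 or E4 C20 (0.19 each, adjusted p = 0.057 and 0.0537). The difference of E4 from OVX was 0.06 in the second series (adjusted p = 0.839).

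Counted over the 6 members tested, 3 were called between E4 and OVX, against 22.0% of all genes, and 2 between E4 and E2, against 12.5%. Of the same 6, 1 was called between TAM and OVX, against 2.21% of all genes, and 1 between TAM and E2, against 6.44%. DESeq2 called 3, 2, 2 and 1 members in these comparisons, in that order. No member was called by edgeR between E2 and OVX or between TAM and E4, where 4.16% and 0.34% of all genes were. At an unadjusted p under 0.05 these comparisons gave 2 members (Esr1 and Ncoa1) and 1 (Esr1), and DESeq2 called 0 in each. No member was called with an absolute log2 fold change over 1, whereas 2.51% of genes were called with such a change between E4 and OVX. The median of the members' log2 fold changes between E4 and OVX was 0.20, against -0.01 over all genes tested.

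**Figure D4:**
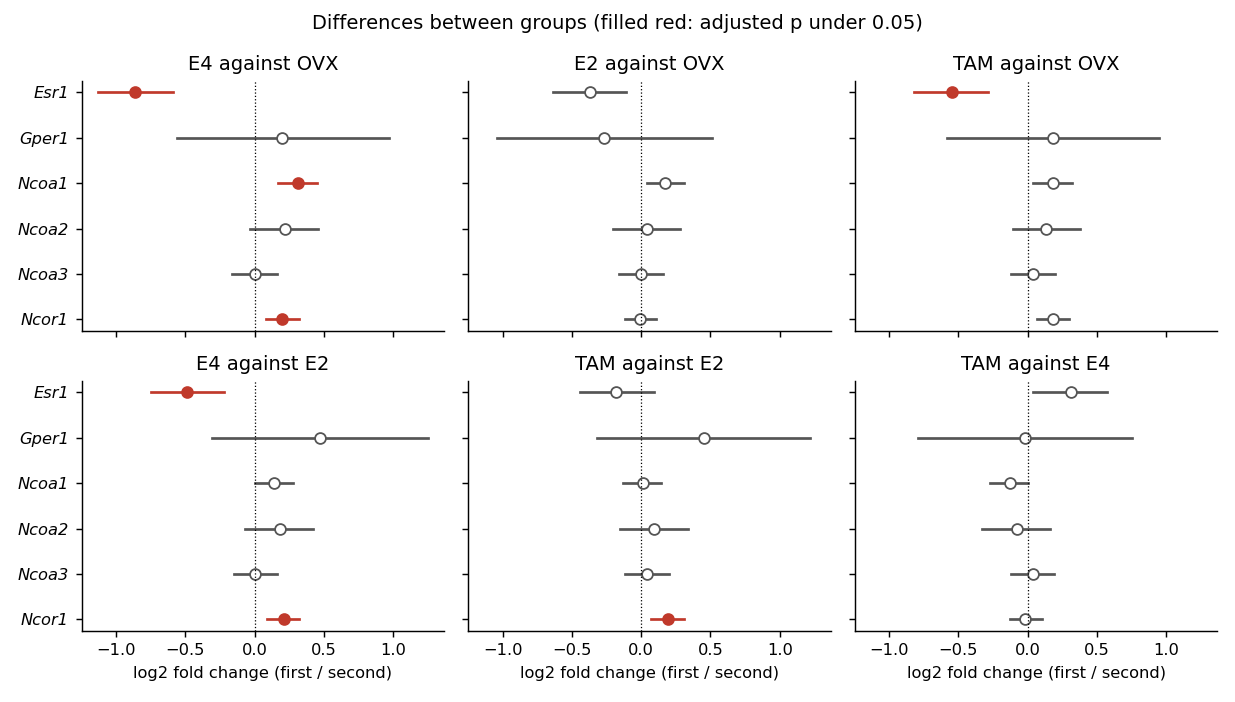
Log2 fold change (points, horizontal axes) and 95% interval (lines) of 6 members in each of 6 comparisons between groups, from edgeR's quasi-likelihood test over 24 libraries. Filled red points have an adjusted p under 0.05, and the interval of Gper1, from -0.56 to 0.97 between E4 and OVX, is the widest of the 6.

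The proportion of the corepressor to the receptor was set beside that of coactivators to corepressor. Per length, Ncor1 exceeded Esr1 2.85 ± 0.553-fold in OVX, 3.63 ± 0.595-fold with E2, 4.63 ± 0.462-fold with TAM and 5.84 ± 0.897-fold with E4 (SD, n = 6 each). The 3 p160 coactivators together exceeded Ncor1 1.92 ± 0.0717-fold in OVX, 2.00 ± 0.0647-fold with E2, 1.83 ± 0.144-fold with E4 and 1.80 ± 0.145-fold with TAM. These ratios follow from the levels above and were not tested.

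Coactivators that act with or beside the p160 family gave more calls upward than downward with E4. Of 28 such genes, all tested, 9 were called higher and 2 lower with E4 than in OVX, against 9.52% and 12.5% of all genes, with a list median of 0.07. With upper-quartile scaling 8 were higher and 4 lower (7.19% and 16.5% of all genes), and without OVX C5 and TAM C35 9 and 2 (11.9% and 10.3%). Smarca4, the ATPase of the SWI/SNF chromatin remodelling complex, rose by 59.9% (0.68, adjusted p = 0.00105), and Pelp1, a scaffold between estrogen receptor and kinases, by 41.5% (0.50, adjusted p = 0.00213). The RNA helicases Ddx5 and Ddx17 fell by 0.32 and 0.28 on the log2 scale (adjusted p = 0.00567 and 0.0235). With TAM, 4 were called higher and 0 lower (2.21% of all genes were called), among them Pelp1 (0.38, adjusted p = 0.047) and the acetyltransferase Ep300 (0.34, adjusted p = 0.0259). The count with TAM was 2 with upper-quartile scaling and 7 with DESeq2. With E2, 0 of 28 were called by edgeR or DESeq2, against 4.16% of all genes, and 6 had an unadjusted p under 0.05.

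Of 18 other corepressors tested (of 20 listed), 2 were called higher and 3 lower with E4 (9.52% and 12.5% of all genes), 1 higher with E2 (4.16% of all genes were called) and 0 with TAM (3 at an unadjusted p under 0.05, 1 called by DESeq2). Nrip1, a corepressor that estrogen receptor itself induces, averaged 33.1 CPM in OVX, 47.7 with E2, 43.1 with E4 and 40.7 with TAM. It was 43.8% higher with E2 (0.52, adjusted p = 0.000829) and 30.1% higher with E4 (0.38, adjusted p = 0.00655). Its difference of 0.30 with TAM was not called by edgeR (adjusted p = 0.077) and was called by DESeq2 (0.31, adjusted p = 0.0382). Rcor1, a subunit of the CoREST complex, was higher with E4 (0.19, adjusted p = 0.0453), and the deacetylases Hdac1 and Sirt1 fell by 0.37 and 0.33 on the log2 scale (adjusted p = 0.0136 and 0.0154).

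Of 12 chaperones and ubiquitin ligases that act on steroid receptors, 2 were called higher and 1 lower with E4 (9.52% and 12.5% of all genes), 1 higher with TAM (2.21% of all genes were called) and 0 with E2 (3 at an unadjusted p under 0.05, 0 called by DESeq2). Fkbp5, a cochaperone of steroid receptors and a known target of the glucocorticoid receptor, averaged 22.3 CPM in OVX, 52.0 with E4 and 40.7 with TAM (1.22, adjusted p = 0.000373, and 0.87, adjusted p = 0.0234). The E4 and OVX values of Fkbp5 did not overlap, as was the case for 9.37% of all genes. Hsp90ab1, which holds unliganded receptors ready to bind hormone, rose by 65.3% with E4 (0.72, adjusted p = 0.00639), and the ubiquitin ligase Mdm2 fell by 0.26 (adjusted p = 0.00812).

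Among the 12 pioneer and partner transcription factors tested (of 14 listed), 1 was called higher and 2 lower with E4, against 9.52% and 12.5% of all genes. Gata3 was 2.32-fold its OVX level with E4 (log2 fold change 1.22, interval 0.42 to 2.01, adjusted p = 0.0281). The ganglion markers averaged 7250 CPM with E4 and 4030 CPM in OVX, and with them as a covariate the Gata3 difference was 0.64 (adjusted p = 0.0163). Without OVX C5 and TAM C35 it was 1.02 (adjusted p = 0.00396). Fos, a partner in tethered binding, fell by 1.08 (adjusted p = 0.0307) and Sp1 by 0.30 (adjusted p = 0.0217). With E2, 1 was called higher (4.16% of all genes were called), and with TAM 0 of 12 were called by edgeR or DESeq2 (2.21% of all genes by edgeR; 2 of the list at an unadjusted p under 0.05).

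Genes of membrane estrogen signalling gave 6 called higher and 1 lower of 15 with E4, against 9.52% and 12.5% of all genes. With upper-quartile scaling 4 were higher and 2 lower (7.19% and 16.5% of all genes), and with DESeq2 7 and 1 (11.3% and 11.9%). Bcar1, a docking protein of focal adhesions, rose by 40.1% (0.49, adjusted p = 0.000935) and the kinase Src by 28.6% (0.36, adjusted p = 0.028). Nos3, endothelial nitric oxide synthase, fell by 0.49 (adjusted p = 0.0236). Egfr was the 1 gene called with E2, 66.0% higher (0.73, adjusted p = 0.000142). With TAM, Egfr (0.49, adjusted p = 0.025) and Bcar1 (0.38, adjusted p = 0.0273) were called higher. Of all genes, 4.16% were called with E2 and 2.21% with TAM. The count with TAM was 0 of 15 with upper-quartile scaling and 5 with DESeq2.

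Among other steroid receptors, the glucocorticoid receptor Nr3c1 fell with E4 by 0.55 (adjusted p = 0.00343). With E2, the progesterone receptor Pgr, a classical target of estrogen receptor alpha, rose to 2.18-fold its OVX level (1.12, adjusted p = 0.000174). With TAM, Pgr was higher by 0.72 (adjusted p = 0.0327). Between E4 and OVX, Pgr differed by 0.29 and was not called (adjusted p = 0.226), and it was lower with E4 than with E2 by 0.83 (difference -0.83, adjusted p = 0.00336). None of the 3 estrogen-related receptors was called against OVX by edgeR or DESeq2 (2 with E4, 1 with E2 and 0 with TAM at an unadjusted p under 0.05).

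Of 16 textbook targets of estrogen receptor tested (of 17 listed), 6 were called higher and 1 lower with E2, 4 higher and 3 lower with E4, and 1 higher, Pgr, with TAM. Over all genes, 4.16%, 22.0% and 2.21% were called in these comparisons. DESeq2 called 7, 8 and 4 of the targets with E2, E4 and TAM, and 9, 8 and 7 had an unadjusted p under 0.05. Greb1, a cofactor of estrogen receptor that it also induces, averaged 1.42 CPM in OVX, 7.60 with E2, 3.17 with E4 and 1.71 with TAM. It was called with E2 (2.41, adjusted p = 1.08e-05) and E4 (1.15, adjusted p = 0.00922), not with TAM (0.27, adjusted p = 0.641), and the E4 level was below the E2 level (-1.26, adjusted p = 0.00702). Complement C3 followed the same order, with 1.22 for E2 (adjusted p = 8.55e-05) and 0.82 for E4 (adjusted p = 0.00314). With TAM, C3 was not called by edgeR (0.52, adjusted p = 0.0956) and was called by DESeq2 (0.53, adjusted p = 0.0389). Fos and Igf1 fell with E4, Igf1 by 0.53 (adjusted p = 0.0432), and the chemokine Cxcl12 fell with both, by 0.40 with E4 (adjusted p = 0.00836) and by 0.36 with E2 (adjusted p = 0.0399; 0.0614 with upper-quartile scaling). Among the genes named from these lists, some calls did not hold throughout. Between E4 and OVX, with ganglion markers as a covariate, Rcor1 (0.16), Sp1 (-0.20), Src (0.22), Nos3 (-0.26) and Igf1 (-0.39) were not called. Smaller there but still called were, among others, Greb1 (0.79), Hsp90ab1 (0.5) and Smarca4 (0.52), whereas C3 was larger (1.0). Rcor1 was also not called with upper-quartile scaling, and neither Rcor1 nor Igf1 without OVX C5 and TAM C35. Between TAM and OVX, Pelp1, Egfr and Bcar1 were not called with upper-quartile scaling (0.34, 0.44 and 0.33), nor Pelp1, Ep300 and Pgr without OVX C5 and TAM C35 (0.35, 0.35 and 0.69).

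**Figure D5:**
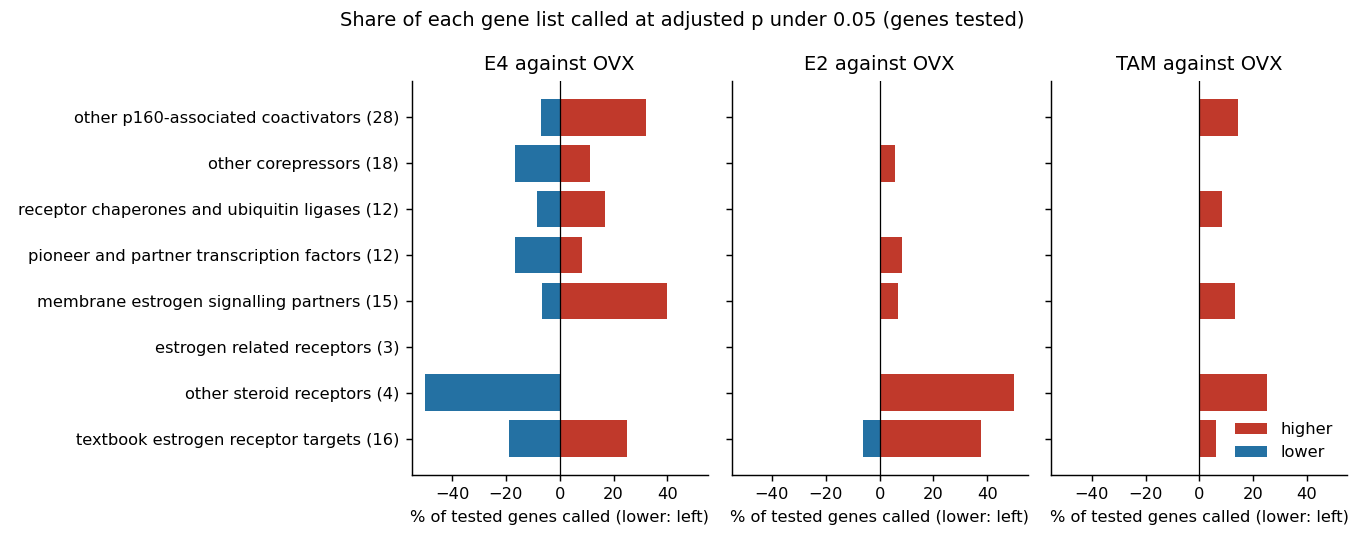
Percentage of the tested genes of 8 lists (rows, with the number tested in brackets) that were called higher (red, right) or lower (blue, left) with E4, E2 or TAM as compared with OVX. Coactivators and membrane signalling partners show calls mostly to the right with E4, 9 of 28 and 6 of 15, against 9.52% of all genes. With upper-quartile scaling these were 8 and 4, against 7.19%.

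The genes whose levels most resembled those of Esr1 over the 24 libraries, among 19526 genes with a mean of at least 1 CPM, were Arhgap29, Kctd12b and Acadsb (Pearson's r = 0.90 each), and Rasgrp3 and Arhgap18 (0.89 each). With group means removed these fell to between 0.71 and 0.84. For Gper1 they were Pim2 (0.93), Snn (0.91) and Pfkm (0.91), and for Ncoa2 Samd8, Mtpn and Cadm2 (0.94 each). These remained between 0.91 and 0.94 with group means removed. For Ncoa3 they were Rbpms (0.88), the pseudogene Gm48839 (0.85) and Pkd1 (0.84). For Ncoa1 they were Heatr5b (0.92), Dlc1 and Rnf44 (0.88 each), with 0.74 to 0.81 once group means were removed. For Ncor1 they were 1700003E16Rik (0.85), Bptf and Fbxo21 (0.84 each), with 0.55 to 0.67. The libraries share depth and tissue composition, and these values are descriptions over 24 libraries.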

How the data were processed

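Carotid artery RNA of ovariectomized mice (24 libraries, 6 each of OVX, E2, E4 and TAM, grouped by title) was sequenced in pairs on a NovaSeq after a stranded TruSeq mRNA preparation. The submitters' processing notes name bcl2fastq 2.17, Trim Galore, Bowtie2, featureCounts and the builds mm10 and GRCm38. The deposited tables, 1 per library, hold estimated counts of genes that the authors did not normalize. Between 8.87% and 9.8% of the deposited counts carried decimals and were rounded to whole numbers. The strand setting of the counting is not given in the sources used here. Of 55421 identifiers, 55240 had an entry in GENCODE M21, which gave names, coordinates and exon lengths.

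Counts were tested with edgeR 4.0.16 (quasi-likelihood test, R 4.3.3) in a single fit of 24 libraries without covariates, with TMM scaling, the default filter on low counts by group and Benjamini-Hochberg adjustment over 25033 genes. Standard errors and 95% intervals were derived from the F statistic and its degrees of freedom. Relations with marker lists were tested by permutation over libraries (100000 resamples, two-sided) in Python 3.11.15. The fit was tested on simulated counts. No pair of libraries of a group agreed within sampling noise (lowest chi-square per degree of freedom 11.6).

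The members and lists were chosen with earlier results of these data known. Named are all 7 members, the 2 highest and 2 lowest called genes of each list in each comparison with OVX, Nrip1, Greb1 and Pgr, and the 5 genes (Esr1) or 3 genes (other members) most correlated with each member; a few genes that this rule names are not reported here. The markers covered smooth muscle, endothelium, fibroblast, macrophage, B cell, T cell, adipocyte, sympathetic ganglion, Schwann cell, skeletal muscle, and thyroid and parathyroid. Alternatives covered the test (DESeq2 1.42.0), scaling, filters, rounding, libraries in the fit, number series, single libraries, depth, thresholds and marker covariates. The fibroblast and smooth muscle covariates were chosen after seeing the data.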

Additional observations from a re-analysis of the deposited data

Results flagged for a closer look

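Each level and each library total was examined in its group of 6 for a library set apart from the rest, where the gap to the next library took up more of the span of the 6 values than Dixon's 95% critical value allows. Of 32 such sets, 3 were singled out, and chance gives about 1 in 20, or 1.6 of 32. Ncoa2 in E2 C8 was 51.04 CPM, against 62.7 to 65.1 CPM in the other E2 libraries. Ncor1 in TAM C12 was 147.8 CPM, against 131.6 to 136.2 CPM in the other TAM libraries. In E4 C38 all counts came to 24647246, and the remaining E4 libraries had between 37505055 and 44224858.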

How the results depend on the processing

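Of 1071 values of members under 45 alternatives, of which 24 left out 1 library, 942 kept their direction and side of the threshold, 69 lost a call, 7 gained one and 53 changed sign. None of the values that changed sign belonged to a difference called over all libraries. Where a value moved, the cause was not tested. No paired analysis was possible because the groups share no replicate numbers.

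For E4 against OVX 5514 genes were called, and 3073 in the first number series alone, 5 in the second series alone, 102 with B cell markers as a covariate, 2973 with adipocyte markers, 1900 with fibroblast markers, 2072 at an adjusted p under 0.01 and 629 with a log2 fold change over 1 as well, and 3274 to 6391 on leaving out 1 library. For E2 against OVX 1041 genes were called, and 340 in the first number series alone, 92 in the second series alone, 1667 without OVX C5 and TAM C35, 2137 with ganglion markers, 1660 with fibroblast markers, 1680 with smooth muscle markers, 521 at an adjusted p under 0.01 and 318 with a log2 fold change over 1 as well, and 804 to 1258 on leaving out 1 library. For TAM against OVX 553 genes were called, and 1593 with DESeq2, 207 without the filter on low counts, 39 in a fit of the 2 groups alone, 1 in the first number series alone, 0 in the second series alone (1636 at an unadjusted p under 0.05, edgeR), 259 without OVX C5 and TAM C35, 1418 with ganglion markers, 17 with B cell markers as a covariate, 249 with adipocyte markers, 1877 with fibroblast markers, 2791 with smooth muscle markers, 363 after thinning to the smallest total, 49 at an adjusted p under 0.01 and 77 with a log2 fold change over 1 as well, and 73 to 879 on leaving out 1 library. For E4 against E2 3134 genes were called, and 5348 in a fit of the 2 groups alone, 0 in the second series alone (1843 at an unadjusted p under 0.05), 6467 without OVX C5 and TAM C35, 648 with B cell markers as a covariate, 693 with adipocyte markers, 668 with fibroblast markers, 6784 with smooth muscle markers, 886 at an adjusted p under 0.01 and 618 with a log2 fold change over 1 as well, and 1436 to 4299 on leaving out 1 library. For TAM against E2 1612 genes were called, and 115 in the second series alone, 3335 without OVX C5 and TAM C35, 3372 with ganglion markers, 883 with adipocyte markers, 2876 with fibroblast markers, 3436 with smooth muscle markers, 640 at an adjusted p under 0.01 and 413 with a log2 fold change over 1 as well, and 1008 to 2043 on leaving out 1 library. For TAM against E4 85 genes were called, and 201 with DESeq2, 1 in the first number series alone, 17 in the second series alone, 132 with ganglion markers, 171 with adipocyte markers, 153 with fibroblast markers, 128 with smooth muscle markers, 49 at an adjusted p under 0.01 and 49 with a log2 fold change over 1 as well, and 62 to 118 on leaving out 1 library. For the joint test of the 4 groups 5253 genes were called, and 3109 in the first number series alone, 74 in the second series alone, 1308 with B cell markers as a covariate, 2980 with adipocyte markers, 8559 with smooth muscle markers and 2033 at an adjusted p under 0.01, and 3809 to 6376 on leaving out 1 library. The libraries whose omission moved a count by over 1.5 times were OVX C3 (3274) and E4 C20 (3623) between E4 and OVX; OVX C3 (73), OVX C5 (271), TAM C11 (215), TAM C12 (196), TAM C13 (207), TAM C33 (113) and TAM C35 (879) between TAM and OVX; E2 C6 (2007), E2 C8 (1436), E2 C9 (1794), E4 C19 (1954) and E4 C20 (1845) between E4 and E2; and E2 C8 (1008) and E2 C9 (1028) between TAM and E2.

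Esr1 E4 against OVX (-0.86) lost its call in the second series alone (-0.78, adjusted p = 0.148) and with B cell markers as a covariate (-0.75, adjusted p = 0.0603), and lay between -0.93 and -0.74 on leaving out 1 library. Esr1 TAM against OVX (-0.55) lost its call in a fit of the 2 groups alone (-0.55, adjusted p = 0.109), in the first number series alone (-0.60, adjusted p = 0.118), in the second series alone (-0.53, adjusted p = 0.776), without OVX C5 and TAM C35 (-0.45, adjusted p = 0.0688), with B cell markers as a covariate (-0.48, adjusted p = 0.316) and with adipocyte markers (-0.29, adjusted p = 0.244), and lay between -0.63 and -0.45 on leaving out 1 library. Esr1 E4 against E2 (-0.49) lost its call in the second series alone (-0.22, adjusted p = 0.83), with B cell markers as a covariate (-0.42, adjusted p = 0.129), with adipocyte markers (-0.20, adjusted p = 0.451) and with fibroblast markers (-0.25, adjusted p = 0.373), and lay between -0.54 and -0.44 on leaving out 1 library. Ncoa1 E4 against OVX (0.31) lost its call in the second series alone (0.20, adjusted p = 0.51), with B cell markers as a covariate (0.28, adjusted p = 0.194) and with fibroblast markers (0.28, adjusted p = 0.0559), and lay between 0.28 and 0.35 on leaving out 1 library. Ncor1 E4 against OVX (0.20) lost its call with upper-quartile scaling (0.13, adjusted p = 0.0987), in a fit of the 2 groups alone (0.21, adjusted p = 0.0585), in the second series alone (0.06, adjusted p = 0.839), with B cell markers as a covariate (0.17, adjusted p = 0.355) and with fibroblast markers (0.16, adjusted p = 0.185), and lay between 0.17 and 0.23 on leaving out 1 library. Ncor1 E4 against E2 (0.21) lost its call in the first number series alone (0.25, adjusted p = 0.0821), in the second series alone (0.18, adjusted p = 0.698), with B cell markers as a covariate (0.19, adjusted p = 0.12), with adipocyte markers (0.19, adjusted p = 0.159) and with fibroblast markers (0.17, adjusted p = 0.194), and lay between 0.19 and 0.24 on leaving out 1 library (not called without E2 C8 or E4 C20). Ncor1 TAM against E2 (0.19) lost its call with upper-quartile scaling (0.18, adjusted p = 0.0733), without the filter on low counts (0.20, adjusted p = 0.101), in a fit of the 2 groups alone (0.19, adjusted p = 0.0668), in the first number series alone (0.20, adjusted p = 0.173), in the second series alone (0.18, adjusted p = 0.396), with B cell markers as a covariate (0.18, adjusted p = 0.0762), with adipocyte markers (0.17, adjusted p = 0.23) and with skeletal muscle markers (0.19, adjusted p = 0.0546), and lay between 0.16 and 0.21 on leaving out 1 library. At an adjusted p under 0.01, Esr1 and Ncoa1 between E4 and OVX stayed called and the other member differences did not. No member difference was called with a log2 fold change over 1 as well, since each was under 1 in size. Esr1 between E2 and OVX gained a call with adipocyte markers (-0.47) and without OVX C4, Ncoa2 between E4 and OVX with smooth muscle markers (0.25, adjusted p = 0.0457), and Ncor1 between TAM and OVX with DESeq2 (0.19), with fibroblast (0.19) or smooth muscle markers (0.21) and without OVX C25 (0.21, adjusted p = 0.0454). The joint test lost its call for Esr1 in the second series alone and with B cell markers, for Ncoa1 with upper-quartile scaling, in each series and with B cell or fibroblast markers, and for Ncor1 in each series and with B cell or adipocyte markers. It gained one for Ncoa2 with smooth muscle markers (adjusted p = 0.0423).

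The values that changed sign belonged to differences that were not called. Esr1 in TAM against E2 was 0.026 in the second series alone and 0.183 with adipocyte markers. Gper1 in E4 against OVX was -0.212 in the second series alone, -0.265 with ganglion markers, -0.197 with B cell markers as a covariate, -0.238 with adipocyte markers and -0.818 with fibroblast markers. Gper1 in E2 against OVX was 0.127 with adipocyte markers. Gper1 in TAM against OVX was -0.347 in the second series alone, -0.057 with ganglion markers, -0.118 with B cell markers as a covariate and -0.388 with adipocyte markers. Ncoa2 in E4 against OVX was -0.13 in the second series alone and -0.033 with fibroblast markers. Ncoa2 in E2 against OVX was -0.146 in the second series alone, -0.031 without OVX C5 and TAM C35, -0.036 with ganglion markers, -0.015 with B cell markers as a covariate and -0.0039 with smooth muscle markers. Ncoa2 in TAM against OVX was -0.21 in the second series alone and -0.043 with adipocyte markers. Ncoa3 in E4 against OVX was -0.069 with upper-quartile scaling, -0.0096 with the number series as a covariate, -0.037 in the first number series alone, -0.022 with smooth muscle markers and -0.015 after thinning to the smallest total. Ncoa3 in E2 against OVX was 0.0002 with DESeq2, 0.028 in the first number series alone, 0.026 with ganglion markers, 0.023 with B cell markers as a covariate, 0.0091 with fibroblast markers and 0.031 with smooth muscle markers. Ncoa3 in TAM against OVX was -0.0042 with upper-quartile scaling, -0.059 in the first number series alone, -0.038 without OVX C5 and TAM C35, -0.074 with smooth muscle markers and -0.0045 after thinning to the smallest total. Ncor1 in E2 against OVX was 0.044 in the first number series alone and 0.0017 with adipocyte markers. On leaving out 1 library, differences that crossed 0 ranged from -0.031 to 0.10 for Ncoa2 in E2 against OVX, -0.034 to 0.02 for Ncoa3 in E4 against OVX, -0.02 to 0.026 for Ncoa3 in E2 against OVX, -0.03 to 0.09 for Ncoa3 in TAM against OVX and -0.03 to 0.025 for Ncor1 in E2 against OVX. Depth limits Esr2, and tests between the number series were not repeated under alternatives.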
